A study of Mus musculus with 8 samples.

Results

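The comparison described here asks which microRNAs differ when c-Src is added to fibroblasts that also receive Csk. The cells were mouse embryonic fibroblasts of strain C57BL/6J that lack Csk (genotype Csk-/-), in all groups. The Csk+Src group was transfected with Csk and c-Src, and the Csk group with Csk alone. Each had 2 arrays, chosen by title, so that 4 of the 8 arrays of the series carry the comparison. The other 4 arrays, 2 of cells given c-Src alone (Src) and 2 of cells given the empty vector (mock), share the estimate of the spread and give the same c-Src difference in the absence of Csk. The labels call the arrays of a group biological replicates, while the series description says that samples were run in duplicate. The sources used here do not state whether the cultures of a group were separate or what drove the transgenes, so p-values measure the spread between these arrays, which may in part be technical.

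Csk is a tyrosine kinase that phosphorylates the tail of Src family kinases, and this holds them in a closed, inactive form. c-Src is the best known of those kinases and passes on signals from growth factor receptors and integrins. In cells without Csk the Src family kinases lack this restraint. The Csk and Csk+Src groups received Csk, while its level and the activity of the kinases were not measured on these arrays. MicroRNAs are short RNAs cut from a hairpin, of which either arm may be kept. They pair with messenger RNAs mainly through the seed, bases 2 to 8 from the 5′ end, and lower the output of those messengers. MicroRNAs with the same seed may come from unrelated genes, and microRNAs with unrelated seeds may be cut from 1 transcript.

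Total RNA was labelled with Cy3 and hybridised to a mouse microRNA array with probes for 611 mouse microRNAs. The 4 arrays detected 230 and 223 of them in Csk+Src cells, and 228 and 201 in Csk cells. Csk array 2, with the fewest, also had the most outlier spots, 696 against 270 to 351 on the other 7 arrays. No probe reads the messenger RNA of Csk or c-Src, so the transfections could not be checked on these arrays. The arrays came from 1 slide on which every group filled 1 column, so that group and column cannot be told apart. The fibroblast and mesenchymal list had 15 names on the array, miR-21 and miR-22 among them, and 13 were detected on any of the 4 arrays. The 15 held 19.7% and 20.8% of the summed signal in Csk+Src cells, and 16.3% and 17.7% in Csk cells. Of 9 epithelial names, the miR-200 family, 1 was detected on any of the 4 arrays, and of 3 keratinocyte names 0 were. The 9 epithelial names summed to 0.000168% and 0.000724% of the signal in Csk+Src cells, and to 0.0154% and 0.0180% in Csk cells.

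Levels below are log2 of the signal of a microRNA after each array was divided by the 75th percentile of the 187 microRNAs detected on all 8 arrays. They cannot fall under a floor of -5.69, and levels of different microRNAs are not set against each other. Differences are Csk+Src minus Csk on the log2 scale, with their standard error (SE) and an adjusted p from limma over the 243 microRNAs tested, and a microRNA is said to have risen or fallen when that adjusted p is under 0.05. With 2 arrays a group the smallest p an exact permutation test can give is 0.333, so single values rest on this model.

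The microRNAs on which the results turn are shown first by their mature sequences (RefSeq, assembly GRCm38.p6), with the seed in capitals, because kinship by sequence and kinship by gene give different groupings here. The members of the X-linked miR-322 cluster that fell carry several different seeds. Those of miR-322 and miR-503 differ only at their last base, and those of miR-450a-5p and miR-450b-5p only near their end.
miR-322: cAGCAGCAauucauguuuugga
miR-503: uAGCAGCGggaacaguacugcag
miR-351: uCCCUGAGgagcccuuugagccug
miR-542-3p: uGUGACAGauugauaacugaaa
miR-450a-5p: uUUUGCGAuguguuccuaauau
miR-450b-5p: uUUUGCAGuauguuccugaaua
The seed of miR-322 is also that of miR-15b and miR-16, whose genes lie elsewhere.
miR-15b: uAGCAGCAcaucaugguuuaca
miR-16: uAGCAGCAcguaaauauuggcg
The pairs below share a seed and moved in opposite directions, miR-130a under the main scaling only.
miR-10a: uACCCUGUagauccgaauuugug
miR-10b: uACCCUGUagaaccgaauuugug
miR-27b: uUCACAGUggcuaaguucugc
miR-27a: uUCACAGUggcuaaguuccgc
miR-34a: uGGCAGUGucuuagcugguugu
miR-34b-5p: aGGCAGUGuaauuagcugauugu
miR-130a: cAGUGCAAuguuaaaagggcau
miR-130b: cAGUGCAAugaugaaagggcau
Relatives by seed that rose together were miR-221 with miR-222 and the miR-29 family.
miR-221: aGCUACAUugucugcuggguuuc
miR-222: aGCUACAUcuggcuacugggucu
miR-29a: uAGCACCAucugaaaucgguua
miR-29b: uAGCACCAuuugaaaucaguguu

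Of the 243 microRNAs tested, 148 passed the threshold (60.9%), 47 of them higher (19.3%) and 101 lower (41.6%) in Csk+Src cells. The arrays of the 2 groups did not overlap for 186 microRNAs (76.5%). A change of 2-fold or more was seen for 13 of those that rose and 23 of those that fell. The median difference over all 243 was -0.15, and another scaling of the arrays moved it by more than 0.1, so small differences are read against it. The split of calls moved with it. Scaled by the median of the same 187 microRNAs, 64 rose and 79 fell around a median of 0, and scaled by the 75th percentile over all 611 names, 82 rose and 58 fell around a median of 0.11. Without Csk array 2, 64 rose and 66 fell. Over the main scaling and 5 others, 44 of the 47 rises and 57 of the 101 falls kept both sign and call. Normexp, a background correction that adds a constant to every spot, left 11 rises and 28 falls.

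The clearest group to fall was the X-linked miR-322 cluster, in which all 9 tested members fell, with a median of -1.71 against -0.15 over all microRNAs. Its microRNAs are processed from neighbouring hairpins, and miR-322 and miR-503 are known brakes on the cell cycle. All 9 fell under each of the 6 scalings and without Csk array 2, and 4 of 9 passed after normexp. The 11 names of the cluster on the array, tested or not, held 1.82% and 1.88% of the summed signal in Csk+Src cells, against 4.43% and 4.60% in Csk cells.

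miR-322, the rodent counterpart of human miR-424, measured 1.64 and 1.69 in Csk+Src cells and 3.01 and 3.20 in Csk cells, a difference of -1.44 (SE 0.09, adjusted p = 0.000106). Its other arm, miR-322*, measured -3.64 and -3.63 in Csk+Src cells, against -2.15 and -2.13 in Csk cells. Both arms were thus lower by nearly the same factor, 2.71-fold and 2.81-fold, and the arrays of the groups lay far apart. miR-503 measured -1.14 and -1.35 in Csk+Src cells and -0.01 and -0.14 in Csk cells, which gave the smallest difference of the 9, -1.17 (SE 0.10, adjusted p = 0.000322). miR-351, which has the seed of miR-125, measured -3.17 and -3.27 in Csk+Src cells, against -1.42 and -1.59 in Csk cells.

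The miR-542 and miR-450 members fell as well. miR-542-3p, known for lowering integrin-linked kinase, measured -3.54 and -3.49 in Csk+Src cells and -1.48 and -1.26 in Csk cells, 4.42-fold lower (SE 0.08, adjusted p = 3.06e-05). miR-542-5p measured -4.58 and -4.37 in Csk+Src cells and -2.59 and -2.44 in Csk cells. For these 2 arms no Csk+Src array came within 1 log2 unit of a Csk array. miR-450a-5p measured -1.97 and -2.04 in Csk+Src cells, against -0.09 and -0.13 in Csk cells, 3.72-fold lower (SE 0.05, adjusted p = 6.64e-06). miR-450b-3p and miR-450b-5p fell by 1.96 and fell by 1.69 on the log2 scale (adjusted p = 5.32e-05 and 0.001).

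**Figure D1:**
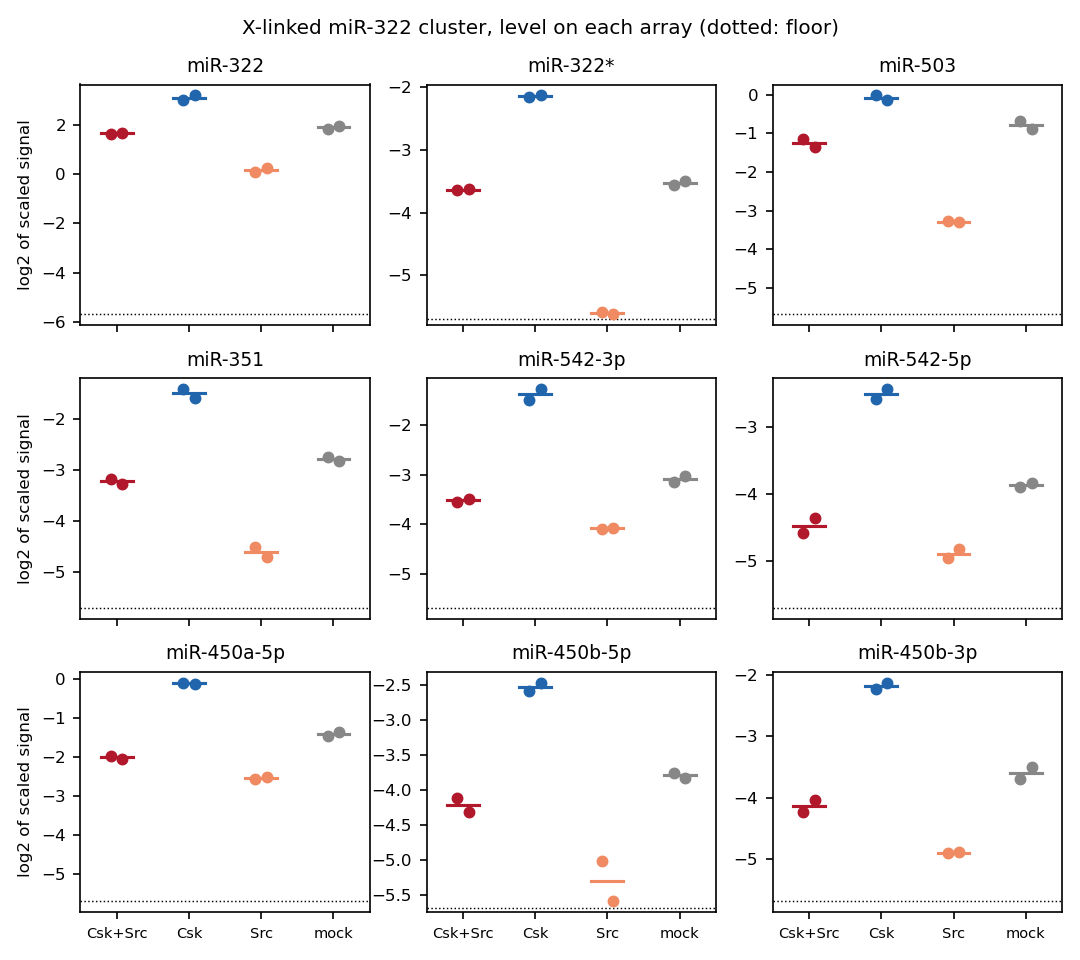
Levels (log2 of scaled signal, y axis) of the 9 tested members of the X-linked miR-322 cluster on each array, by group along the x axis, with a bar at the group mean and the floor of -5.69 dotted. In every panel both Csk+Src arrays lie below both Csk arrays, and the Csk arrays lie above the other 6 arrays.

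For all 9 members the Csk arrays were above the range of the other 6 arrays, so the group that stood apart was Csk. In the absence of Csk the members were also lower with c-Src, by a median of -1.52 (Src minus mock). The size of the 2 differences did not match for every member. The fall was steeper with Csk present for miR-542-3p, by -1.15 (adjusted p of the interaction = 0.0012), miR-542-5p, by -0.94 (adjusted p = 0.00347), and miR-450a-5p, by -0.77 (adjusted p = 0.000702). After normexp the interaction of miR-542-5p turned sign, to a log2 value of 0.24. It was shallower for miR-503, by 1.33 (adjusted p = 0.00135), and for miR-322*, by 0.59 (adjusted p = 0.000481). The value for miR-322* is limited by the floor, since its Src arrays measured -5.59 and -5.62, and with a floor at 2 times this height it turned to -0.32. For miR-322, miR-351 and miR-450b-5p the test of the difference did not pass (0.31, 0.09 and -0.17).

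The microRNAs of the Hox gene clusters, which are transcribed within the homeobox clusters that set position along the body axis, held both the largest fall and a rise of 4.12-fold. Of the 4 tested, 1 rose and 3 fell, and 5 of the 9 names on the array were not tested. miR-10a measured -5.17 and -5.29 in Csk+Src cells, against -2.35 and -2.24 in Csk cells, and fell by 2.93 (7.64-fold, SE 0.09, adjusted p = 1.23e-05). miR-10b measured -2.95 and -2.84 in Csk+Src cells, against -4.94 on both Csk arrays, and rose by 2.04 (SE 0.06, adjusted p = 9.8e-06). The 2 mature sequences differ at 1 base outside the seed, U12A, counted from the 5′ end with the base of miR-10a first. How far the probe of each also binds the other was not tested. The Src and mock arrays lay between for both: -2.97 to -2.91 (Src) and -3.14 to -2.93 (mock) for miR-10a, and -3.43 to -3.34 (Src) and -3.33 to -3.24 (mock) for miR-10b. Each of the 2 groups therefore stood outside the other 6 arrays, on opposite sides, for both microRNAs. After normexp miR-10a still passed (-0.94, adjusted p = 0.0103) and miR-10b did not (0.47, adjusted p = 0.15).

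miR-196a measured -5.43 and -5.18 in Csk+Src cells and -3.56 and -3.35 in Csk cells, and fell by 1.85 (SE 0.11, adjusted p = 8.44e-05). miR-196b, which has the same seed, fell by 0.38 (SE 0.12, adjusted p = 0.037). Without Csk array 2 that value was -0.11 (adjusted p = 0.663), and under none of the 5 other scalings did miR-196b pass.

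The clusters of miR-23, miR-27 and miR-24 are present in 2 copies, and the copies went in opposite directions. In the b copy, miR-23b measured 1.49 and 1.47 in Csk+Src cells against 2.68 and 2.73 in Csk cells, and fell by 1.22 (SE 0.05, adjusted p = 3.1e-05). miR-27b measured 0.85 and 0.83 in Csk+Src cells against 2.07 and 2.13 in Csk cells, and fell by 1.26 (SE 0.06, adjusted p = 3.59e-05). miR-24-1*, the arm that comes only from the b copy, fell by 0.92 (adjusted p = 8.44e-05). In the a copy, miR-27a measured 1.87 on both Csk+Src arrays, against 1.37 and 1.499 in Csk cells, and rose by 0.43 (SE 0.07, adjusted p = 0.00463). miR-23a rose by 0.26 (adjusted p = 0.0122), and miR-24-2* was 0.14 higher and did not pass (adjusted p = 0.221). miR-27a and miR-27b differ at 1 base, C19U, with the base of miR-27a first. The falls in the b copy passed under all 6 scalings, whereas without Csk+Src array 2 miR-27a and miR-23a missed the threshold (adjusted p = 0.0525 and 0.101). miR-24, which both copies give, fell by 0.58 (adjusted p = 0.000153). Without Csk array 2 the differences were 0.70 for miR-27a, 0.49 for miR-23a and -0.36 for miR-24.

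**Figure D2:**
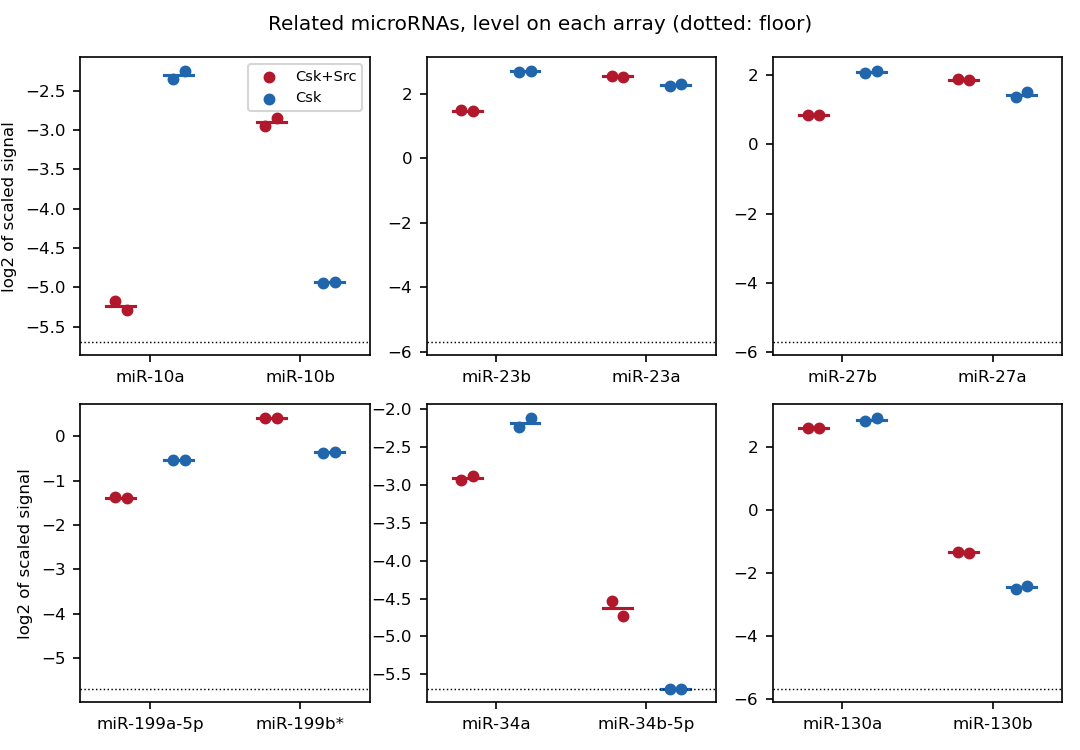
Levels (log2 of scaled signal) on each Csk+Src array (red) and Csk array (blue) for 6 pairs of related microRNAs, with a bar at each group mean and the floor dotted. In each panel the left microRNA is lower and the right one higher in Csk+Src cells, from miR-10a and miR-10b at -2.93 and 2.04 to miR-130a and miR-130b at -0.27 and 1.11. The direction of miR-130a holds under the main scaling and turns under 2 others.

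The same was seen in the miR-34 family, whose genes are known targets of p53. miR-34a fell by 0.73 (SE 0.09, adjusted p = 0.00122), with -2.93 and -2.88 in Csk+Src cells and -2.24 and -2.11 in Csk cells, and was at -0.47 without Csk array 2. miR-34b-5p, from another gene, measured -4.53 and -4.72 in Csk+Src cells and was detected on neither Csk array, so it was at least 2.09-fold higher (adjusted p = 0.000443). Its neighbour miR-34c was at least 1.80-fold higher (adjusted p = 0.000419). In the absence of Csk all 3 rose with c-Src (0.39, 1.34 and 1.42).

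miR-130b and miR-301b, neighbours in 1 transcript, both rose by 1.11 (adjusted p = 0.000106 and 0.000443). After normexp miR-301b was at 0.09 and did not pass (adjusted p = 0.88), while miR-130b was at 0.63 (adjusted p = 0.0108). miR-130b measured -1.36 and -1.37 in Csk+Src cells, against -2.53 and -2.42 in Csk cells. miR-130a and miR-301a, which share its seed, were lower by 0.27 (adjusted p = 0.0365 and 0.0409), a call that none of the 5 other scalings kept as a fall and that ended without Csk array 2. miR-199a-5p, a microRNA of mesenchymal cells, fell by 0.84 (adjusted p = 3.1e-05), while miR-199b* rose by 0.77 (adjusted p = 0.000135) with 0.42 and 0.40 in Csk+Src cells and -0.37 and -0.35 in Csk cells.

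The largest rise was that of miR-143, a microRNA of smooth muscle and mesenchymal cells. It measured -2.80 and -2.93 in Csk+Src cells and -5.06 and -5.04 in Csk cells, where 1 of 2 arrays detected it, and rose by 2.19 (4.56-fold, SE 0.05, adjusted p = 6.63e-06). The Src and mock arrays measured -3.23 and -3.17 (Src) and -2.54 and -2.55 (mock), so the Csk group was again the one outside the others. miR-145, its neighbour, was not tested, because no group had it detected on both arrays. After normexp the rise of miR-143 was 0.52 (adjusted p = 0.0662).

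miR-221 and miR-222, neighbours on the X chromosome that are known for lowering the cell cycle inhibitor p27, both rose. miR-221 measured 0.36 on both Csk+Src arrays, against -0.62 and -0.55 in Csk cells, and rose by 0.95 (SE 0.05, adjusted p = 6.86e-05). miR-222 measured -1.54 and -1.74 in Csk+Src cells and -2.55 and -2.71 in Csk cells, and rose by 0.99 (SE 0.09, adjusted p = 0.000417). Both passed under all 6 scalings and after normexp. Without Csk the rise with c-Src was larger, 1.5 and 1.6, and the difference was past the threshold (-0.55, adjusted p = 0.00297, and -0.61, adjusted p = 0.0123). For miR-221 it was -0.32 without Csk array 2 (adjusted p = 0.0177).

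The miR-29 family, known for lowering collagens and other matrix proteins, rose in 4 of 5 tested members, against 19.3% of all 243. Its median was 0.35, or 0.67 without Csk array 2. miR-29b measured 1.03 on both Csk+Src arrays, against 0.01 and 0.12 in Csk cells, and rose by 0.97 (SE 0.07, adjusted p = 0.000175). miR-29a measured 1.67 and 1.61 in Csk+Src cells and 1.09 and 1.11 in Csk cells, and rose by 0.54 (SE 0.05, adjusted p = 0.000301). miR-29c and miR-29b* rose by 0.28 and 0.35, or 0.44 and 0.67 without Csk array 2. The rise of miR-29b* is the least firm, since without Csk+Src array 2 it no longer passed and after normexp it was -0.11.

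Of the 16 tested members of the miR-17 clusters, which Myc is known to switch on, 8 rose and 2 fell, with a median of 0.18, or 0.40 without Csk array 2. Over all 243, 19.3% rose and 41.6% fell. miR-92a measured 1.49 and 1.51 in Csk+Src cells and 0.95 and 0.99 in Csk cells, and rose by 0.53 (adjusted p = 0.000774). miR-20a measured 1.52 and 1.51 in Csk+Src cells and 1.05 and 1.16 in Csk cells, and rose by 0.41 (adjusted p = 0.00421, or 0.0522 without Csk+Src array 2), and by 0.67 without Csk array 2. miR-19b, 0.09 higher, did not pass (adjusted p = 0.293). The 2 falls were miR-93 and miR-25, neighbours in the miR-106b cluster, at -0.24 and -0.17. When arrays were scaled by the 75th percentile over all names both were higher, 10 members rose and 0 fell, and without Csk array 2 neither passed (adjusted p = 0.711 and 0.66).

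miR-374, on the X chromosome, measured -1.72 and -1.81 in Csk+Src cells, against -2.97 and -3.03 in Csk cells, and rose by 1.24 (SE 0.04, adjusted p = 2.18e-05). The Csk+Src arrays were also above every Src and mock array, which measured -2.08 to -2.03. Among the 47 rises, the Csk+Src arrays lay above the other 6 for 7 microRNAs, miR-374, miR-421, miR-10b, miR-21*, miR-140, miR-140* and miR-350, of which miR-350 was named after its values were seen. miR-140 and miR-140* are the arms of a hairpin in an intron of Wwp2, known from cartilage. miR-140* measured 0.52 and 0.49 in Csk+Src cells and -0.24 and -0.17 in Csk cells, and rose by 0.71 (adjusted p = 0.000278). miR-140 rose by 0.56 (adjusted p = 0.00705, or 0.066 without Csk+Src array 2), and by 0.87 without Csk array 2.

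Several rises were seen against Csk arrays at the floor, where the size cannot be read. In either group, 2 arrays set to the floor show no spread, so the SE and adjusted p of such microRNAs may be too small. Of the 47 microRNAs that rose, 9 were detected on neither Csk array, and of the 101 that fell, 4 were detected on neither Csk+Src array. These counts do not cover every size limited by the floor, such as those of miR-421, miR-219 and miR-206, which rose, and miR-214*, which fell. The Sfmbt2 cluster, a large set of related microRNAs in an intron of the mouse gene Sfmbt2, is the main instance. All 11 of its tested members were detected on neither Csk array, so a fall could not have been seen, and no direction is read from the 6 that passed. miR-467b measured -4.18 and -4.16 in Csk+Src cells and was at least 2.87-fold higher there (adjusted p = 5.08e-06). miR-669a and miR-466a-3p were at least 2.43-fold and at least 2.08-fold higher. miR-669f, whose gene lies beside that of miR-467b, was detected on all 4 arrays. It measured -2.82 and -2.79 in Csk+Src cells and -4.85 and -4.63 in Csk cells, and rose by 1.94 (SE 0.08, adjusted p = 3.1e-05). Probes of these near-identical microRNAs may share signal, which was not tested, and after normexp 0 of the 11 rose.

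miR-146a, which NF-κB is known to induce, was among the falls with a bound. It was detected on neither Csk+Src array and measured -3.11 and -3.04 in Csk cells, at least 6.16-fold lower with c-Src (adjusted p = 6.64e-06). Without Csk the difference had the other sign: -2.40 and -2.31 in Src cells, against -4.17 and -4.00 in mock cells. The interaction was -4.35 (SE 0.09, adjusted p = 1.77e-05), the most extreme of all 243. miR-146b, from another gene with the same seed, measured -2.91 and -2.89 in Csk+Src cells and -2.34 and -2.28 in Csk cells, and fell by 0.59 (adjusted p = 0.000143), with -0.365 without Csk array 2. In Src cells it measured -1.90 and -1.82, against -3.20 and -3.15 in mock cells. miR-721 was detected on neither Csk+Src array and measured -3.89 and -3.73 in Csk cells, at least 3.69-fold lower (adjusted p = 3.1e-05).

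The miR-15 and miR-16 list, known for restraining cyclins and Bcl2, fell in all 6 tested members, with a median of -0.53, or -0.30 and 5 of 6 without Csk array 2. miR-497 measured -2.92 and -2.89 in Csk+Src cells and -1.47 and -1.37 in Csk cells, and fell by 1.48 (SE 0.07, adjusted p = 3.78e-05). miR-195, its neighbour, measured -2.73 and -2.74 in Csk+Src cells and -1.49 and -1.37 in Csk cells, and fell by 1.30 (SE 0.07, adjusted p = 5.32e-05). For both, Csk+Src was the lowest of the 4 groups and Csk the highest, and without Csk the differences were -0.03 and 0.11, neither past the threshold. miR-16 and miR-15b, the bright members, fell by 0.54 and fell by 0.47 (adjusted p = 0.000462 and 0.00368). These smaller falls depend on scaling: under quantile normalization they were 0.00 and 0.06, and without Csk array 2 miR-16 was at -0.33 and miR-15b at -0.22 (adjusted p = 0.003 and 0.0855). Between 3 and 6 of the 6 members fell over the scalings. Of all 243, 41.6% fell under the main scaling.

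The miR-30 family fell in 8 of 9 tested members, against 41.6% of all 243, with a median of -0.66. Over the scalings 6 to 9 of 9 fell. The median was -0.42 without Csk array 2 and -0.32 with the 75th percentile over all names. miR-30c measured -0.60 and -0.67 in Csk+Src cells and 0.25 and 0.26 in Csk cells, and fell by 0.89 (SE 0.04, adjusted p = 3.1e-05). miR-30a measured 0.65 and 0.60 in Csk+Src cells and 1.39 and 1.37 in Csk cells, and fell by 0.76 (adjusted p = 4.84e-05). Without Csk the family's median difference was -0.05. miR-26a and miR-26b fell by 0.71 and fell by 0.59 under the main scaling and passed under all 6, with miR-26b at -0.38 without Csk array 2. The let-7 family gave no direction that held: 0 rose and 6 fell of 14, around a median of -0.17, and under the 75th percentile over all names 2 rose and 0 fell. The 4 tested names of miR-96, miR-182 and miR-183 fell under the main scaling only, and 0 or 1 passed under the 5 others.

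**Figure D3:**
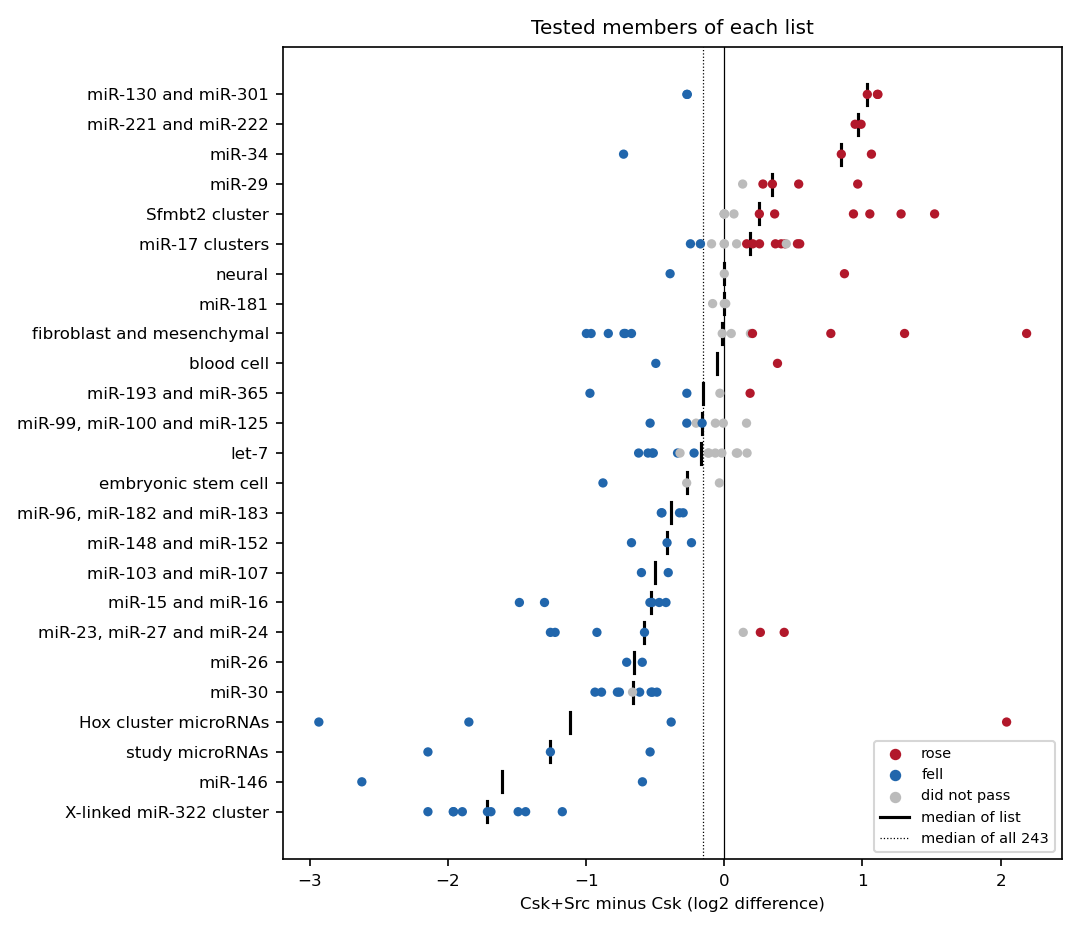
Csk+Src minus Csk log2 difference (x axis) of each tested member of the lists that had more than 1, with 1 list per line, coloured by call. A bar marks each list's median and a dotted line the median of all 243, -0.15. The X-linked miR-322 cluster, with its median of -1.71, lies lowest, and miR-221 and miR-222, at 0.97, lie among the highest.

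Within the fibroblast and mesenchymal list 4 members rose and 6 fell of 13, and without Csk array 2, as with 2 of the other scalings, 7 rose and 6 fell. Over all 243 tested, 19.3% rose and 41.6% fell. miR-214 and miR-214*, from the same transcript as a copy of miR-199a, fell by 0.963 and fell by 0.998 (adjusted p = 0.000204 and 0.000365). The size for miR-214* is limited by the floor. After normexp miR-214* was at -0.20 (adjusted p = 0.823) and miR-214 at -0.74 (adjusted p = 0.00636). miR-22 and miR-22* fell by 0.73 and fell by 0.72, and without Csk array 2 miR-22 was at -0.47. miR-21, the brightest microRNA on the arrays, measured 5.09 and 5.15 in Csk+Src cells and 4.80 and 5.06 in Csk cells, and its difference of 0.19 did not pass (95% interval -0.10 to 0.48). Its other arm, miR-21*, rose by 1.30 (adjusted p = 0.000103), with detection on 1 of 2 Csk arrays and a difference of 0.02 after normexp. miR-31 rose by 0.20 (adjusted p = 0.0216, or 0.0895 without Csk+Src array 1), and by 0.36 without Csk array 2. miR-99a, which is known for lowering Mtor, measured 0.52 and 0.47 in Csk+Src cells, against 1.04 and 1.02 in Csk cells, and fell by 0.54 (SE 0.04, adjusted p = 0.000152), with -0.35 without Csk array 2.

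Markers of other cell types moved too, at low levels. The endothelial miR-126-3p, from an intron of Egfl7, measured -4.66 and -4.64 in Csk+Src cells and -3.58 and -3.53 in Csk cells, and fell by 1.10 (SE 0.06, adjusted p = 6.86e-05). It was detected in all 4 groups, and its list held 0.0199% and 0.0195% of the summed signal in Csk+Src cells and 0.0374% and 0.0353% in Csk cells. Of the blood cell list 2 of 9 names were tested: miR-155 fell by 0.50 (adjusted p = 0.0027, or 0.0769 without Csk array 2) and miR-486 rose by 0.39. Of 6 muscle names miR-206 alone was tested, and it rose by 0.24. Of 9 neural names 3 were tested, and miR-128 fell by 0.39 while miR-219 rose by 0.87. The sizes for miR-206 and miR-219 are limited by the floor, at which their Csk arrays lay. Of 22 names of embryonic stem cells 3 were tested, and miR-290-5p fell, detected on neither Csk+Src array. The calls of 3 of these ended when 1 array was left out: miR-290-5p without Csk array 2 (adjusted p = 0.0608), miR-486 without Csk+Src array 2 (0.095) and miR-206 without Csk+Src array 1 (0.0996). Without Csk array 2 the log2 difference of miR-486 was 0.585 and that of miR-128 -0.25. With the 75th percentile over all names miR-128 was at -0.05 (adjusted p = 0.644) and miR-155 at -0.15 (adjusted p = 0.195). Under quantile normalization neither passed (adjusted p = 0.545 and 0.113). For miR-128 the call also ended with no scaling and with the series table (adjusted p = 0.105 and 0.087). The part of these markers in the other differences was not tested.

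Hairpins, gene neighbours and seeds, which the choice of arrays did not use, were set against the calls. The hairpins with both arms tested numbered 44. Both arms passed for 21 of them, and in 21 of 21 they moved the same way. For miR-467a and miR-467a*, 1 of the 21, a fall could not have been seen, since neither Csk array detected them. In another of the 21, miR-130b* was also detected on neither Csk array (-5.69 and -5.58). Its agreement with miR-130b was thus limited in the same way. Over all 44, called or not, 36 had arms of the same sign. The agreement to be had from the share of falls alone was not tested. Arms of a hairpin often differed in size: miR-29b and miR-29b* rose by 0.97 and 0.35, miR-18a and miR-18a* by 0.16 and 0.55 (without Csk+Src array 1 neither of these passed, adjusted p = 0.204 and 0.0757). Genes within 10 kb of each other formed 16 neighbour clusters, from 174 tested microRNAs that matched 1 gene of the annotation. In 12 of these 2 or more members passed, and 0 of the 12 held calls in both directions. Among them was the X-linked cluster of miR-532 and miR-362, with 5 falls of 7, between -0.50 and 0.11, which scaling could turn for its smaller members. Another, miR-34b-5p with miR-34c, was detected on neither Csk array, so that it could only rise. In that of miR-467b and miR-669f this held for miR-467b, and in that of miR-130b and miR-301b, with 3 rises of 3, nearly so for miR-130b*. Sequences were found for 148 of the 243, in 22 groups of shared seed. Of the 18 with 2 or more calls, 6 held calls in both directions under the main scaling, among them the pairs shown above.

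Which of the 2 groups stood apart was read from the range of the other arrays. For 115 of the 148 called microRNAs the Csk arrays lay outside the range of the other 6, above it for 83 and below it for 32. For 45 the Csk+Src arrays lay outside the other 6, above for 7 and below for 38, and for 33 both did. The remaining 21 had neither group outside. Over all 243 tested the Csk arrays lay outside for 126 and the Csk+Src arrays for 49. All these counts are for the main scaling. The 83 with Csk arrays above are all among the 101 falls, of which 57 kept sign and call over the 6 scalings.

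The same addition of c-Src in the absence of Csk, Src against mock, shares no array with this comparison. There 108 of 243 passed (44.4%). Of the 77 that passed in both, which is 52.0% of the 148 and 71.3% of the 108, 55 had the same sign, 28 higher and 27 lower. The other 22 had opposite signs, 6 of them higher with Csk present and lower without, and 16 lower with Csk present and higher without. These counts are for the main scaling. As a description, the 2 differences correlated at r = 0.30 and rho = 0.29 across the 243 microRNAs, which are not independent and share the scaling of the arrays. The test of the difference itself, the interaction, was past the threshold for 123 (50.6%), 33 with a higher and 90 with a lower difference where Csk was present. After normexp 1 passed.

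**Figure D4:**
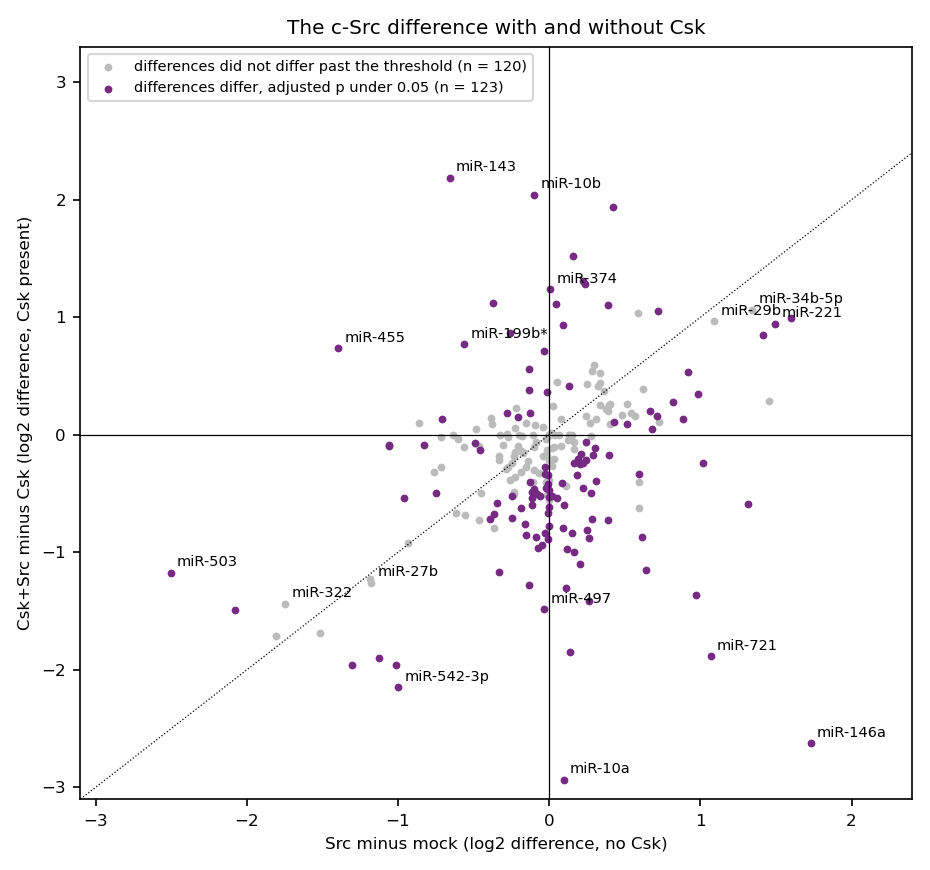
Log2 difference with c-Src in the presence of Csk (Csk+Src minus Csk, y axis) and in its absence (Src minus mock, x axis) for the 243 tested microRNAs, with a dotted line where they are equal. The 123 microRNAs whose differences differ past the threshold are purple, among them miR-146a, at -2.62 with Csk and 1.73 without, and miR-10a, at -2.93 with Csk and 0.10 without.

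miR-27b and miR-23b show a fall that was much the same with and without Csk, -1.26 and -1.22 with it and -1.18 for both without it, and the interactions of -0.08 and -0.04 did not pass. With the 75th percentile over all names these were 0.33 and 0.37. miR-29b rose by 0.97 with Csk present and by 1.09 without, and that interaction also did not pass (-0.13, adjusted p = 0.342). miR-455, from an intron of a collagen gene, is an instance of opposite signs. It measured -4.29 and -4.35 in Csk+Src cells and -5.11 and -5.02 in Csk cells, a rise of 0.74 (adjusted p = 0.00011), whereas Src cells measured -5.55 and -5.61 against -4.20 and -4.17 in mock cells. These Src arrays lay near the floor of -5.69, which limits the size without Csk. After normexp the rise of miR-455 with Csk present was 0.02 (adjusted p = 0.983). miR-210, which hypoxia is known to induce, measured -0.81 and -0.84 in Csk+Src cells and -0.65 and -0.52 in Csk cells, a difference of -0.24 (adjusted p = 0.037) that was above 0 under 2 other scalings and without Csk array 2. In Src cells it measured -0.21 and -0.05, against -1.20 and -1.11 in mock cells, and the interaction was -1.26 (adjusted p = 0.000526).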

How the data were processed

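Per the file headers, the authors extracted spot intensity with Agilent Feature Extraction 9.5.3.1, subtracting background and leaving arrays unscaled. The deposited series table holds that intensity per name, unscaled. RNA integrity numbers were above 9, per the labels. In Csk array 1 the deposited intensity had been rounded, by at most 0.493%. Of 13715 spots 13000 were not controls and 0 were saturated. Outlier spots were left out, spots averaged per probe, probes summed per microRNA, each array divided by its 75th percentile over 187 microRNAs, values under 0.0193 set to it, and log2 taken. Of 611 mouse microRNAs, 243 were tested, those that some group had detected on each of its arrays. Of the 243, 6 were at the floor on all arrays. The number of arrays limits the precision. limma 3.58.1 in R 4.3.3 fitted the 4 group means over 8 arrays (4 residual, 5.09 total degrees of freedom), two-sided, with Benjamini-Hochberg adjustment over the 243 and a threshold of 0.05.

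For a bound, a group with no detection takes its own signal or the floor, whichever is higher. Sequences and neighbouring genes come from RefSeq (GRCm38.p6), by symbol, with arms assigned by hand from the array's older names. The files name no build, so no coordinates are given. The members, the 29 lists and the tests were chosen with earlier results of these data known. Named are the 15 largest rises and falls without overlap, the 3 largest of the interaction each way, miR-21, miR-31, miR-145, miR-210, miR-542-3p, miR-27b and miR-99a, up to 4 of the brightest members per list, and arms, neighbours and seed relatives of the first. Others named, such as miR-140 and miR-350, were chosen after their values were seen. The alternatives were 5 other scalings, normexp (offset 50), other filters, floors, summaries and signal columns, array weights, a replicate block, the 4 arrays alone and each array left out. Python 3.11.15 with matplotlib 3.10.9 drew the figures.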

Additional observations from a re-analysis of the deposited data

Results flagged for a closer look

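The results below stood out because the c-Src difference with Csk present (Csk+Src minus Csk) departed from that without Csk (Src minus mock) in a test of the difference itself, limma's interaction over the 243 microRNAs. This held for 123 of 243 (adjusted p under 0.05), and after normexp for 1. The values are log2 differences, negative where the difference with Csk present was the lower, and their median over all 243 was -0.17.

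The most negative were miR-146a at -4.35, miR-10a at -3.03 and miR-721 at -2.95. miR-146a and miR-721 were detected on neither Csk+Src array, so that their size is limited by the floor, and miR-721 turned to 0.26 after normexp. miR-497 was at -1.45, miR-210 at -1.26, miR-542-3p at -1.15, miR-542-5p at -0.94 and miR-450a-5p at -0.77. miR-222 and miR-221, which rose in both comparisons, were at -0.61 and -0.55.

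On the other side, miR-143 was at 2.85, miR-10b at 2.14 and miR-455 at 2.14. miR-669f was at 1.52, miR-503 and miR-199b* both at 1.33, miR-374 at 1.23 and miR-322* at 0.59. The sizes for miR-455 and miR-322* are limited by the floor, near which their Src arrays lay. Without Csk, miR-143, miR-455 and miR-199b* fell and miR-374 and miR-10b did not pass. The order of slide columns and the group cannot be told apart for any of these. No technical or biological cause was tested.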

How the results depend on the processing

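The count of 148 stayed within 1.5 times under all alternatives but normexp (39 called, 11 higher and 28 lower; 29 of the 80 named calls; 1 for the interaction), which adds an offset of 50 per spot. Calls of nearly unchanged size were lost there too. miR-27a was at 0.428 (adjusted p = 0.0583) against 0.434 in the main fit, and miR-20a at 0.401 (adjusted p = 0.0558) against 0.412. Why calls were lost was not tested. Leaving out 1 array gave 111 to 147 calls, 34 to 64 higher, 66 to 103 lower, a median of -0.198 to 0.00315, 65 to 77 named calls and 80 to 121 for the interaction; the 66 and 0.00315 came without Csk array 2. The median was 0.108 (82 higher, 58 lower) with the 75th percentile over all names, 0 with the median of common microRNAs, 0.0174 (quantile), -0.0085 (no scaling), -0.0608 (series table), 0 with no detection filter, -0.219 with detection on all 4 arrays, -0.0916 with a floor at 2 times and -0.0590 with log2 averaged over probes.

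Signs turned as follows. With the 75th percentile over all names: miR-210 0.108, miR-93 0.102, miR-25 0.174, miR-130a 0.0788, miR-301a 0.0757, and the interactions of miR-23b 0.366 and miR-27b 0.327. With quantile normalization: miR-210 0.136, miR-16 0.0027, miR-15b 0.0646, miR-25 0.0416, miR-130a 0.118, and the interactions of miR-23b 0.510 and miR-27b 0.317. miR-25 was 0.0043 with the median of common microRNAs. Leaving out 1 array gave -0.301 to 0.0221 for miR-210, -0.354 to 0.0104 for miR-301a, -0.182 to 0.0355 for miR-25 and -0.0906 to 0.183 for the interaction of miR-23b, the positive ends without Csk array 2. After normexp, miR-130b* was -0.0152, miR-29b* -0.112, miR-206 -0.0415, miR-486 -0.0584, miR-219 -0.0065, miR-18a* -0.0569, and the interactions of miR-721 0.261 and miR-542-5p 0.236. The interaction was -0.323 for miR-322* with a floor at 2 times and -0.327 for miR-351 with log2 averaged over probes. The cause was not tested.

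Replicate deviations of Csk+Src and Csk correlated at r = 0.0845. Over the 6 group pairs r ran from -0.0912 (Csk with mock) to 0.438 (Csk+Src with Src), not above 0.1 in every pair, so the numbers were not taken to pair samples. With a replicate block 156 were called, 50 higher and 106 lower, 80 named, and 141 for the interaction. Signal near background limits the dim microRNAs.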
